A study of Mus musculus with 4 samples.

Results

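Interferon-induced GTPases were examined in kidney RNA as a set of 10 genes: the guanylate-binding protein genes Gbp2, Gbp3, Gbp5, Gbp6, Gbp7 and Gbp9, and the immunity-related GTPase genes Irgm1, Irgm2, Igtp and Iigp1. These were 10 of the 54532 genes in the count tables, and all 10 were among the 14908 genes that passed the filter on low counts and were tested. The members were chosen by name with their measured values known, after Gbp2 had been noted for higher counts in knockout kidneys. The difference between genotypes in the 10 genes is therefore given as a description, without a p-value.

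RNA-seq was performed on whole kidneys from mice lacking Zbp1 (Zbp1-KO) and from wild-type mice (WT), with 2 libraries of each genotype, referred to as WT 1, WT 2, Zbp1-KO 1 and Zbp1-KO 2. The mice were female according to the study. Every mouse, of both genotypes, had received an intraperitoneal dose of 500 µL pristane, an oil used to provoke a lupus-like disease, at 8 weeks of age, and kidneys were collected 8 months afterwards, so no untreated kidney enters the comparison. Zbp1 encodes a sensor of left-handed nucleic acids, and the knockout was a constitutive CRISPR-Cas9 deletion of exons 2 to 8 on a C57BL/6J background, in every cell of the animal. The study's methods describe the WT mice as purchased, and whether they shared litters or cages with the knockout mice was not given in the sources used here.

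Guanylate-binding proteins and immunity-related GTPases are enzymes that bind and hydrolyse GTP and are among the proteins most strongly induced by interferon gamma in mouse macrophages and epithelial cells. They assemble on membranes, including the vacuoles that enclose intracellular bacteria and parasites, where the guanylate-binding proteins open the vacuole or the microbe to inflammasome sensing. In the immunity-related family, Irgm1, Irgm2 and Igtp are regulators that protect the cell's own membranes and hold effectors such as Iigp1 in check. Interferon gamma acts on its target genes at gamma-activated sites (GAS) and through the factor IRF1. Type I interferon acts at interferon-stimulated response elements (ISRE), but the presence of such letters does not show which interferon acts on a gene.

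The genes lie in a few clusters of the mouse genome (GRCm38, GENCODE M21 annotation). Gbp2 (ENSMUSG00000028270, chr3:142620602-142638008), Gbp3 (ENSMUSG00000028268, chr3:142560026-142573209), Gbp5 (ENSMUSG00000105504, chr3:142493978-142522344) and Gbp7 (ENSMUSG00000040253, chr3:142530342-142550149) are neighbours on the forward strand of chromosome 3. Gbp6 (ENSMUSG00000104713, chr5:105270702-105293698) and Gbp9 (ENSMUSG00000029298, chr5:105077630-105139539) lie on the reverse strand of chromosome 5. Irgm1 (ENSMUSG00000046879, chr11:48861968-48871683) is on the reverse strand of chromosome 11, where Irgm2 (ENSMUSG00000069874, chr11:58199618-58222782) and Igtp (ENSMUSG00000078853, chr11:58199556-58207591) overlap on the forward strand. The location of Iigp1, which is apart from these clusters, is given with its values. All 10 are protein-coding genes.

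The sequences below show features that the choice of genes did not use, beginning with the DNA just upstream of the transcription start. RefSeq promoter windows, which run from 250 bases before the start to 50 bases after it (GRCm38.p6), were found for 7 of the 10 genes, namely Gbp2, Gbp3, Gbp5, Gbp7, Irgm1, Irgm2 and Igtp. A pair of short motifs was searched on both strands. The first, GAAANNGAA (TTCNNTTTC on the other strand), resembles the ISRE, and the second, TTCNNNGAA (the same on both strands), resembles the GAS. The stretches are printed from the gene's own strand, 5′ to 3′, with motif letters in capitals. They end at or before the RefSeq start, and because GENCODE M21 places some exons further upstream, 30 bases of the Gbp2 stretch, 18 of the Gbp3 stretch, 30 of the Gbp5 stretch and all 30 of the Irgm1 stretch lie in an annotated exon.
Gbp2, chr3:142620553-142620631: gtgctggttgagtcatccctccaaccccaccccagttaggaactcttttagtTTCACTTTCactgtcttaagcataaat
Gbp3, chr3:142559934-142560043: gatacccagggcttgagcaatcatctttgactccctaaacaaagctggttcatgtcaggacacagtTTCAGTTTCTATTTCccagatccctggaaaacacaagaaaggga
Gbp5, chr3:142496824-142496929: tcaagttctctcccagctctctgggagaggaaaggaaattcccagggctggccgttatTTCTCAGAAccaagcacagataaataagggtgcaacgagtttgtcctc
Gbp7, chr3:142530226-142530335: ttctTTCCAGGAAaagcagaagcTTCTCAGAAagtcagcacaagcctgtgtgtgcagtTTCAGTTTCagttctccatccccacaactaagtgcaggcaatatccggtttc
Irgm1, chr11:48871429-48871458: tgtttcaaGAAATAGAAACCGAAactgatt
Irgm2, chr11:58214867-58214976: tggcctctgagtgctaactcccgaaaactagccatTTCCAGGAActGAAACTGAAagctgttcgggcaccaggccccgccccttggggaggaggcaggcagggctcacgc
Igtp, chr11:58199446-58199555: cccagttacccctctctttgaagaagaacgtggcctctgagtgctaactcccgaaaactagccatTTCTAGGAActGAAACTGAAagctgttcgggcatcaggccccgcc

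The ISRE-like letters were present in the windows of all 7 genes, whereas 9.76% of the 27025 genes in the RefSeq table had them in any of their windows. In 6 of the 7 the match began within 70 bases before the start, and in Gbp5 it began 164 bases before it, outside the printed stretch. Gbp3 and Irgm1 each held a pair of overlapping matches. GAS-like letters were present in 4 of the 7 windows, those of Gbp5, Gbp7, Irgm2 and Igtp, against 9.55% of all genes. Irgm2 and Igtp had the same arrangement, with 2 bases between a GAS-like match and the ISRE-like match that followed it, although the pair began 75 bases before the RefSeq start in Irgm2 and 45 bases before it in Igtp. The map of these matches shows how closely they cluster near the start. A match is a description of the letters, and binding of a factor was not measured.

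**Figure D1:**
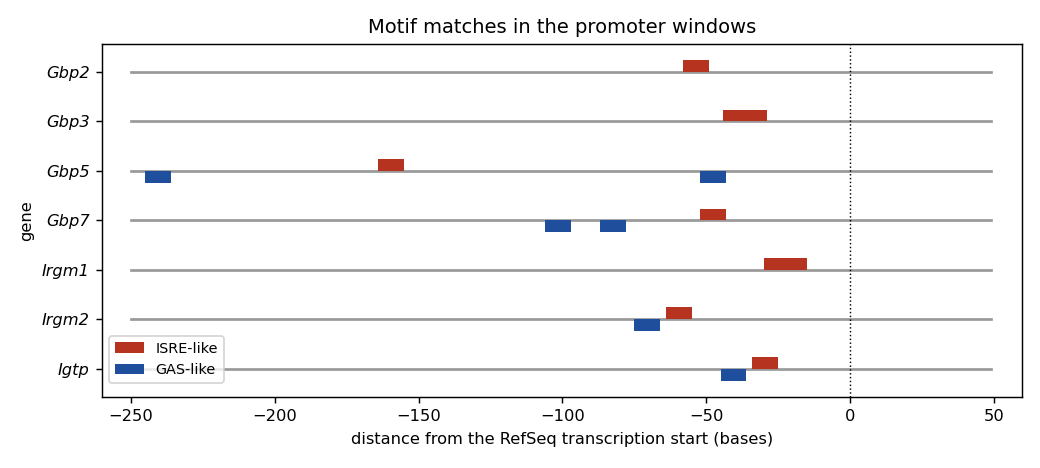
Positions of ISRE-like (red) and GAS-like (blue) letters in the promoter windows of 7 interferon-induced GTPase genes; the horizontal axis is the distance in bases from the RefSeq transcription start and each grey line is one gene's window. ISRE-like matches lie within 70 bases before the start in 6 of the 7 genes, and Gbp5 is the exception.

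The coding sequences differ in the loop that binds GTP. The guanylate-binding proteins and Iigp1 have a lysine codon at the position where Irgm1, Irgm2 and Igtp have a methionine codon, the substitution that gives the regulatory immunity-related GTPases their usual name. The 24 bases of the loop are shown for one guanylate-binding protein and the 3 regulators, with the codon in capitals (GENCODE M21 transcripts).
Gbp2, coding bases 133 to 156: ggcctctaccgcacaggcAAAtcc
Irgm1, coding bases 247 to 270: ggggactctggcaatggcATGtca
Irgm2, coding bases 211 to 234: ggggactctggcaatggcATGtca
Igtp, coding bases 271 to 294: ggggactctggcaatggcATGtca

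The 3 regulators were identical over these 24 bases, while over the whole coding sequence Irgm2 and Igtp were 68.6% identical, Irgm1 and Igtp 66.3%, and Irgm1 and Irgm2 63.8%. A cysteine codon at the fourth position from the end, where a lipid can be attached to anchor the protein in membranes, was found in Gbp2 and Gbp5 and in no other member. The last coding bases are shown with this codon in capitals, ending in the stop codon.
Gbp2, coding bases 1756 to 1770: TGCactatactctga
Gbp5, coding bases 1759 to 1773: TGTgttataagctaa

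Similarity between members bears on their counts, because only uniquely mapped read pairs were counted. Gbp6 and Gbp9 had coding sequences 89.7% identical, and Gbp3 and Gbp7 76.6%. Of all 100-base stretches in the transcripts of Gbp6, 64.5% also occurred in a transcript of another gene, mostly Gm43302, a coding gene that shares 29.0% of the exon bases of Gbp6 on the same strand. For Gbp7, 9.59% were shared with the pseudogene Gm43802, and the share in any other gene was at most 5.16% for each of the other 8 genes. Gbp6 counts are accordingly the least certain, and Irgm2 and Igtp share 162 exon bases.

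The 4 libraries held 9878776 to 12921925 counts, of which 49.5% to 61.5% fell on mitochondrially encoded genes. Values are given as counts per 1000000 (CPM) of library sizes adjusted by trimmed-mean (TMM) factors, and 3 counts, the most that a count of 0 allows, correspond to 0.221 to 0.323 CPM, a limit for counting error only. Zbp1 itself was at 7.56 and 10.7 CPM in WT 1 and WT 2, at 1.33 CPM (18 counts) in Zbp1-KO 1 and at 0 counts in Zbp1-KO 2, and counts per gene do not show on which exons the 18 fell. All 11 kidney epithelium markers were detected in every library. The sample titles number the kidneys within a genotype but do not say how they were assigned to mice, so the spread given below is that between these samples and may in part be technical.

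All 10 GTPase genes had a higher mean in Zbp1-KO than in WT kidneys, with log2 fold changes between 0.53 and 1.34 and a median of 0.92, beside a median of -0.01 over all genes tested. Of all genes tested, 49.4% had a fold change above 0. None of the 10 reached an adjusted p under 0.05 in edgeR's quasi-likelihood test, as 0.0134% of all genes did. At an unadjusted p under 0.05 the test passed 6 of the 10, with 3.88% of all genes passing, and the edgeR exact test, DESeq2 and limma-voom called 0 of the 10 after adjustment. Both Zbp1-KO libraries were above both WT libraries for 4 genes, Gbp3, Gbp5, Gbp6 and Gbp7, which held for 16.0% of all genes tested. As the members were selected with this comparison in view, nothing is read from these counts. In whole-kidney RNA, more expressing cells and more RNA per cell cannot be told apart.

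The order of the values was alike across most of the 10 genes, and in 6 of them it did not divide the genotypes. Zbp1-KO 1 was the highest library for 10 of the 10 genes, as it was for 26.5% of all genes tested. WT 1 was the lowest for 9 of the 10, against 21.6% of all genes, and Gbp7 was the exception. The combination of both occurred in 9 of the 10 genes and in 7.36% of all genes. Selecting genes with higher Zbp1-KO values in view favours such orders, so these counts are a description and nothing is read from them. In 6 genes (Gbp2, Gbp9, Irgm1, Irgm2, Igtp and Iigp1) the order from low to high was WT 1, Zbp1-KO 2, WT 2, Zbp1-KO 1, so the genotypes interleaved. Summed over the 10 genes, the level was 165 CPM in WT 1, 325 CPM in WT 2, 607 CPM in Zbp1-KO 1 and 284 CPM in Zbp1-KO 2.

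**Figure D2:**
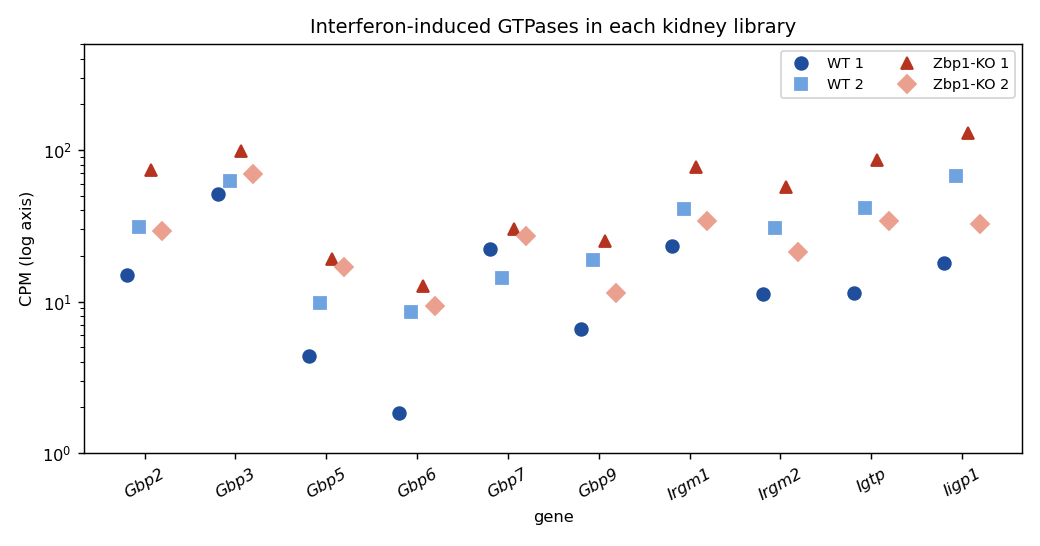
CPM of each of the 10 genes in each library on a log axis, with WT in blue and Zbp1-KO in red; each symbol is one library. The triangle of Zbp1-KO 1 is the highest point for 10 of the 10 genes and the circle of WT 1 the lowest for 9, while Zbp1-KO 2 lies below WT 2 for 6 genes.

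Gbp2 and Gbp5 are the members with the cysteine codon shown above, and both take part in inflammasome responses to intracellular bacteria. Gbp2 was at 14.96 CPM in WT 1, 31.2 CPM in WT 2, 73.7 CPM in Zbp1-KO 1 and 29.2 CPM in Zbp1-KO 2. Zbp1-KO 1 stood above the rest and Zbp1-KO 2 fell between the WT libraries, so the groups overlapped. The mean was 23.1 ± 11.5 CPM for WT against 51.4 ± 31.4 CPM for the knockout (SD, n = 2), and the log2 fold change was 1.16 ± 0.40 (SE). Gbp5, which promotes NLRP3 inflammasome assembly, was at 4.34, 9.84, 19.1 and 16.8 CPM in the same order of libraries. Its Zbp1-KO values were close to each other and both above WT, with no overlap. Its log2 fold change, 1.34 ± 0.39, was the highest of the 10, and its Zbp1-KO libraries differed by only 0.18 on the log2 scale.

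Gbp3 was the guanylate-binding protein gene with the most counts. It was at 51.1 CPM in WT 1, 62.7 in WT 2, 98.4 in Zbp1-KO 1 and 69.2 in Zbp1-KO 2. The groups did not overlap, although Zbp1-KO 2 was near WT 2, and the log2 fold change was 0.56 ± 0.22. Gbp3 was also the steadiest member, with its highest library 1.93 times its lowest. Gbp7, which acts in trafficking and in oxidative defence of phagocytes, was at 22.2, 14.4, 30.3 and 26.9 CPM, again without overlap. It was the one gene lower in WT 2 than in WT 1, and its log2 fold change was 0.65 ± 0.27.

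The chromosome 5 genes Gbp6 and Gbp9, paralogues in one cluster, were the least counted for their length besides Gbp5. Gbp6 was at 1.85 CPM in WT 1, from 23 counts, and at 8.47, 12.7 and 9.37 CPM in WT 2, Zbp1-KO 1 and Zbp1-KO 2. The low value of WT 1 set it apart, and WT 2 was close to Zbp1-KO 2 without overlap of the groups. The log2 fold change was 1.10 ± 0.57. Gbp9 was at 6.59, 18.8, 25.1 and 11.4 CPM in that order. Each genotype had a higher and a lower library and the groups overlapped, and its log2 fold change of 0.53 ± 0.47 was the lowest of the 10.

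The 3 regulators Irgm1, Irgm2 and Igtp followed one pattern. Irgm1, required for autophagy-linked control of mycobacteria and for limiting interferon responses, was at 23.4 CPM in WT 1, 40.9 in WT 2, 77.4 in Zbp1-KO 1 and 33.8 in Zbp1-KO 2. Irgm2, a regulator of the vesicle compartments at the Golgi and of caspase-11 responses, was at 11.2, 30.6, 56.6 and 21.1 CPM. Igtp, also named Irgm3 and located at the endoplasmic reticulum, was at 11.4, 41.6, 85.5 and 33.9 CPM. In each of them Zbp1-KO 2 lay between the WT libraries. The log2 fold changes were 0.80 ± 0.35 for Irgm1, 0.90 ± 0.46 for Irgm2 and 1.18 ± 0.50 for Igtp. Igtp had the widest range of the 10 genes, with its highest library 7.48 times its lowest.

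Iigp1, the effector GTPase that coats and ruptures parasite vacuoles, is encoded on the forward strand of chromosome 18 (ENSMUSG00000054072, chr18:60376027-60392634) and had the highest single value of the set. It was at 17.9 CPM in WT 1, 66.8 in WT 2, 128 in Zbp1-KO 1 and 32.4 in Zbp1-KO 2. Zbp1-KO 2 had less than WT 2, and the difference between the Zbp1-KO libraries was 1.98 on the log2 scale, larger than the log2 fold change between genotypes of 0.93 ± 0.58.

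Differences within a genotype were large for most members. Zbp1-KO 1 exceeded Zbp1-KO 2 by a median of 1.16 on the log2 scale over the 10 genes, beside a median absolute difference of 0.39 over all genes. WT 2 exceeded WT 1 by a median of 1.29, beside a median absolute difference of 0.32. For 6 of the 10 genes the gap between the Zbp1-KO libraries was larger than the fold change between genotypes. Genes with a gap between the Zbp1-KO libraries at least as large as that of Iigp1, in the same direction, made up 2.90% of all genes, and the share for Gbp5 was 36.9%. For the gap between the WT libraries the shares were 0.979% for Gbp6 and 1.30% for Iigp1, and 25.4% for Gbp3. Gbp3, Gbp5 and Gbp7, together with Gbp6, were thus the genes whose Zbp1-KO libraries were near each other, with gaps of 0.51 or less.

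**Figure D3:**
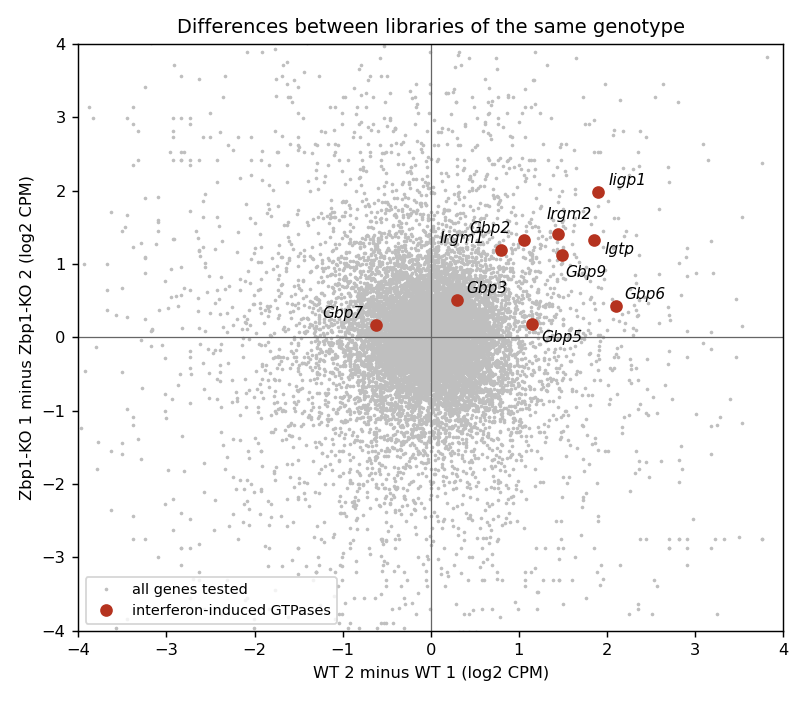
Difference between the libraries of one genotype for each gene tested, with WT 2 minus WT 1 on the horizontal and Zbp1-KO 1 minus Zbp1-KO 2 on the vertical axis (both log2 CPM); grey points are all genes and red points the 10 GTPase genes, and genes beyond 4 on either axis are not shown. Of the 10 genes, 9 lie in the upper right, with Gbp7 to its left, and Iigp1 is farthest out with 1.89 and 1.98.

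The fold change between genotypes therefore depended on which libraries were included. With Zbp1-KO 1 left out, the median log2 fold change of the 10 genes was 0.30, with 8 of the 10 above 0, and Gbp9 and Iigp1 were at -0.16 and -0.39. With WT 1 left out the median was 0.43, and Gbp9 was at -0.04. With Zbp1-KO 2 or WT 2 left out the median was 1.36 or 1.79, and the groups did not overlap for any of the 10 genes, with the Zbp1-KO side higher, as held for 34.9% of all genes without Zbp1-KO 2 and 28.7% without WT 2. Gbp5 stayed between 0.86 and 2.04 and Gbp3 between 0.28 and 0.78 across the 4 choices. With 2 against 2 libraries an exact two-sided permutation test of a single gene cannot give a p below 0.3333.

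**Figure D4:**
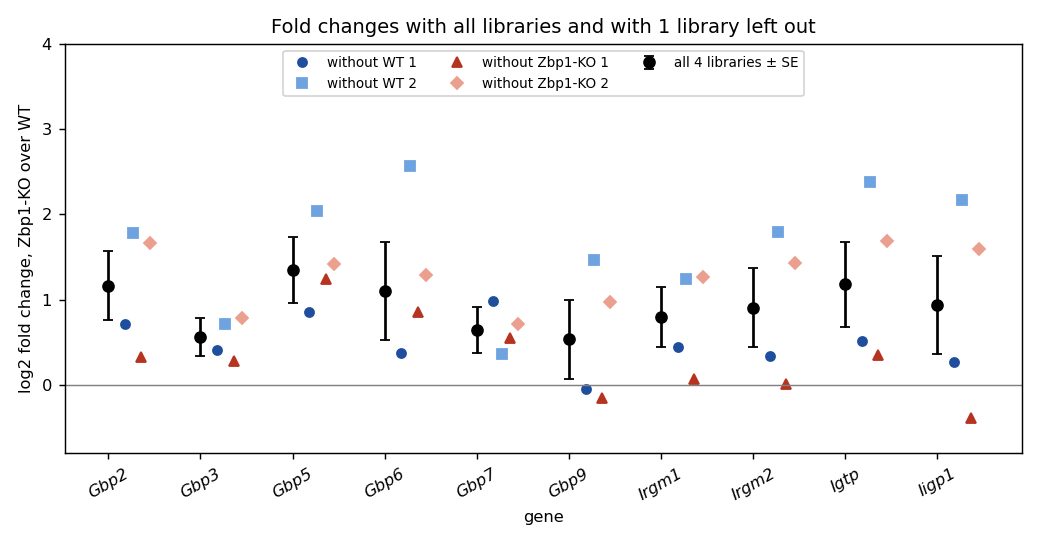
Log2 fold change of each gene, Zbp1-KO over WT, with all 4 libraries (black, ± SE) and with each library left out in turn (coloured symbols). Leaving out Zbp1-KO 1 (dark red triangles) gave values between -0.39 for Iigp1 and 1.24 for Gbp5, and leaving out WT 2 (light blue squares) gave values up to 2.56 for Gbp6.

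Levels were compared between genes as CPM per kilobase of exon. In WT kidneys the order was Gbp3 (17.4 ± 2.52, SD, n = 2), Igtp (13.1 ± 10.5), Gbp2 (9.18 ± 4.57), Iigp1 (7.27 ± 5.94), Irgm2 (5.66 ± 3.73), Irgm1 (5.53 ± 2.13), Gbp7 (3.26 ± 0.986), Gbp9 (2.46 ± 1.67), Gbp5 (1.07 ± 0.585) and Gbp6 (0.866 ± 0.786). Of the 9 pairs of neighbours in this order, 1, Irgm1 and Gbp7, differed by more than the larger of their SDs. In Zbp1-KO kidneys Igtp (29.5 ± 18.02) came before Gbp3 (25.7 ± 6.34), the other genes kept their order down to Gbp6 (1.85 ± 0.393), and 1 of 9 neighbouring pairs, Gbp5 and Gbp6, differed by more than the larger SD. With the length of the longest annotated transcript in place of all exon bases, the WT levels of Gbp3, Gbp5, Irgm1 and Iigp1 moved by more than 1 SD, and the WT rank of 5 genes changed, that of Iigp1 from 4 to 2.

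The make-up of the summed per-kilobase level differed between libraries of one genotype. The guanylate-binding proteins made up 63.8% of it in WT 1, 46.2% in WT 2, 44.5% in Zbp1-KO 1 and 56.4% in Zbp1-KO 2. The 3 regulators made up 29.2%, 40.8%, 42.3% and 36.4%, and Iigp1 7.04%, 13.0%, 13.2% and 7.16%. The guanylate-binding share was thus lower in WT 2 and Zbp1-KO 1, the libraries with the higher summed levels, and within it Gbp3 went from 35.9% in WT 1 to 17.98% in Zbp1-KO 1. The share of Igtp went from 13.0% in WT 1 to 25.2% in Zbp1-KO 1.

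**Figure D5:**
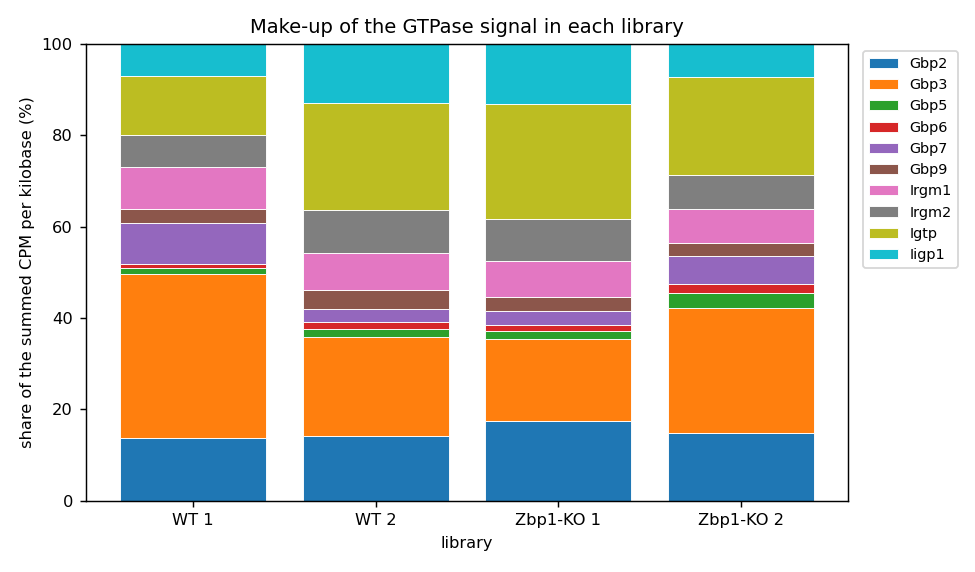
Share of each gene in the summed CPM per kilobase of the 10 genes, in percent, for each library. Gbp3 takes 35.9% in WT 1 and 17.98% in Zbp1-KO 1, while Igtp takes 13.0% and 25.2%.

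Other genes of the family and of its pathway were taken from fixed lists, and of all their tested genes the edgeR exact test called 1, Nlrc5, while DESeq2 and limma-voom called 0. Of 5 other guanylate-binding genes, 4 passed the filter. None of the 4 was called by edgeR's quasi-likelihood test, and 1 had an unadjusted p under 0.05. This was Gbp4, at 12.4, 35.8, 73.6 and 26.0 CPM in WT 1, WT 2, Zbp1-KO 1 and Zbp1-KO 2, with a log2 fold change of 1.06 ± 0.48 and the same order of libraries as Gbp2. Gbp8 was at 2.49, 8.30, 7.37 and 3.99 CPM. Gbp10 had 0 counts in WT 1 and in Zbp1-KO 2 and 32 and 65 counts in WT 2 and Zbp1-KO 1, and Gbp11 had 12 and 9 counts in WT 2 and Zbp1-KO 2 and none elsewhere. Gbp2b had at most 5 counts in any library.

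Of the other immunity-related and very large inducible GTPases, 12 of the 14 genes found were tested, 0 were called by edgeR's quasi-likelihood test and 2 had an unadjusted p under 0.05, both higher in Zbp1-KO. Gm4951 was at 1.53, 2.48, 5.16 and 9.05 CPM in the same order of libraries, with Zbp1-KO 2 the highest and no overlap, and its log2 fold change was 1.82 ± 0.60. Tgtp1, a GTPase named for T cells and with a close copy next to it, was at 2.41, 7.10, 21.1 and 5.17 CPM and overlapped (1.48 ± 0.63). Gvin1, a very large inducible GTPase, was at 3.62, 1.97, 1.47 and 0.862 CPM (-1.24 ± 0.92), and F830016B08Rik was at 0.0804, 1.63, 0.737 and 2.37 CPM (0.85 ± 1.40). Of the 12 tested genes of this list, 2 had both Zbp1-KO libraries above both WT libraries, as held for 16.0% of all genes tested. So did the dynamin-like GTPases Mx1 and Mx2. Mx2 was at 2.57, 0.941, 7.08 and 6.46 CPM (1.94 ± 0.64) and Mx1 at 5.23, 2.74, 5.90 and 8.62 CPM (0.86 ± 0.52). Neither was called, and Mx2 had an unadjusted p under 0.05. In both WT 1 exceeded WT 2, unlike 9 of the 10 GTPase genes.

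Among 13 genes of interferon gamma signalling, 12 were tested, 0 were called by edgeR's quasi-likelihood test and 2 had an unadjusted p under 0.05. Ifng had 0 counts in all 4 libraries, which allows up to 0.323 CPM in the shallowest. Irf1, the transcription factor that drives many guanylate-binding genes, was at 19.7, 30.02, 51.9 and 35.7 CPM in WT 1, WT 2, Zbp1-KO 1 and Zbp1-KO 2, without overlap (0.82 ± 0.27). Nlrc5, the activator of MHC class I genes, was at 9.81, 12.8, 30.5 and 27.6 CPM, with a log2 fold change of 1.36 ± 0.26. Its adjusted p in edgeR's quasi-likelihood test was 0.452. Irf1 and Nlrc5 were the 2 genes of this list with both Zbp1-KO libraries above both WT libraries, as held for 16.0% of all genes tested. The median log2 fold change of the 12 genes was 0.19. Socs3, a feedback inhibitor of cytokine receptors, was at 13.8, 3.51, 3.83 and 8.40 CPM (-0.52 ± 0.61).

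Of 10 type I interferon signalling genes, 9 were tested, 0 were called by edgeR's quasi-likelihood test and 1 had an unadjusted p under 0.05. This was Usp18, the inhibitor of type I receptor signalling, at 5.47, 6.93, 17.3 and 8.08 CPM (1.04 ± 0.42). Irf9 (0.33 ± 0.21), Irf3 (-0.25 ± 0.19) and Stat2 (-0.24 ± 0.21) had smaller log2 fold changes, and Ifnb1 had 0 counts in all libraries. The median log2 fold change of the 9 genes was -0.03. Both Zbp1-KO libraries were above both WT libraries for 2 of the 9, Usp18 and Irf9, as held for 16.0% of all genes tested.

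Partners of the GTPases had log2 fold changes on both sides of 0. Of 13 genes that place the proteins on vacuoles or link them to autophagy, all were tested, and none was called or had an unadjusted p under 0.05. The largest log2 fold changes were 0.83 ± 0.45 for Trim21, -0.60 ± 0.31 for Atg5, -0.40 ± 0.38 for Atg12 and -0.24 ± 0.25 for Atg7, the last 3 being part of the autophagy conjugation machinery on which targeting to vacuoles depends. Of 8 inflammasome effectors 7 were tested and 0 were called or had an unadjusted p under 0.05, with Il1b at -0.95 ± 0.90, Il18 at 0.92 ± 1.06, Gsdmd at 0.46 ± 0.35 and Casp1 at 0.21 ± 0.59. Of 5 prenylation enzymes, which attach the lipid to proteins with a cysteine end such as those shown above or process that end afterwards, 0 were called or had an unadjusted p under 0.05. Fntb was at 0.51 ± 0.43, Fnta at -0.14 ± 0.23, Pggt1b at -0.14 ± 0.70 and Rce1, a protease that trims the end after the lipid is attached, at -0.11 ± 0.43.

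Markers of immune cells that express these GTPases did not share one order of libraries. All 9 T cell markers were detected in every library. They summed to 14.96 CPM in WT 1, 10.5 in WT 2, 29.2 in Zbp1-KO 1 and 21.1 in Zbp1-KO 2. Zbp1-KO 1 was the highest library for 7 of the 8 tested, and for 26.5% of all genes tested. That held for 3 of 10 tested macrophage and 1 of 8 tested endothelial markers. It held for 0 of the tested dendritic, natural killer and cytotoxic, B cell and plasma cell, and neutrophil markers. The 10 macrophage markers summed to 395, 258, 375 and 378 CPM. Among the sums given here, WT 2 was below WT 1 for T cell, macrophage, neutrophil, and B cell and plasma cell markers. It was above WT 1 for dendritic cell, natural killer and cytotoxic, and endothelial markers. The part of cell content in the GTPase values was not tested. Natural killer and cytotoxic markers summed to 2.01 to 3.34 CPM in WT and 2.95 to 3.12 CPM in Zbp1-KO, with Ncr1 and Klrb1c at 0 counts in every library, and the neutrophil markers Mpo and Ly6g were also at 0 throughout. Dendritic cell markers summed to 12.2, 19.0, 16.9 and 18.9 CPM in the same order of libraries, and B cell and plasma cell markers to 126, 34.0, 49.4 and 62.3 CPM. Of the 6 markers in each of these lists, 2 and 4 were detected in every library. The mean log2 level of the 4 tested B cell and plasma cell markers was higher in WT 2 than in WT 1, unlike their sum. Endothelial markers summed to 350, 448, 397 and 373 CPM.

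Outside the immune system, fat markers and immediate-early genes moved with genotype or with library. The 11 kidney epithelium markers summed to 3697 and 4118 CPM in WT and to 3530 and 3493 CPM in Zbp1-KO. Their median log2 fold change was 0.11, and 0 were called. The median log2 fold change of the endothelial markers was -0.02, and 0 were called. The 8 fat markers summed to 86.2 and 124 CPM in WT and to 271 and 246 CPM in Zbp1-KO. Both Zbp1-KO libraries were above both WT libraries for 7 of 7 tested, as for 16.0% of all genes tested. Of these markers 1 was called, beside 0.0134% of all genes. The 8 immediate-early genes, which respond to handling of the tissue, summed to 440 and 166 CPM in WT. Their sums in Zbp1-KO were 91.7 and 102 CPM, both below the WT sums. WT 1, the library with the lowest GTPase level, had the highest immediate-early sum. The mitochondrial share was 57.4% in WT 1, 61.5% in WT 2, 49.5% in Zbp1-KO 1 and 59.5% in Zbp1-KO 2. It was lowest in Zbp1-KO 1, the library with the highest GTPase level. However, WT 2, with the highest share, had a higher GTPase level than WT 1 and Zbp1-KO 2. The part of these differences in the GTPase values was not tested.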

How the data were processed

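Kidney RNA from pristane-treated mice was measured by polyA RNA-seq in 4 libraries, 2 per genotype, grouped and numbered by their titles. The authors extracted RNA with Trizol, prepared TruSeq v2 libraries, sequenced pairs of 150-base reads, trimmed them with Trimmomatic, aligned them with hisat2 and deposited whole-number counts of uniquely mapped pairs per Ensembl gene from featureCounts. The submitters' processing notes name mm10. The annotation release, program versions and the strand setting of the counting were not given in the sources used here, so overlapping and antisense genes are uncertain, and molecular identifiers were not described.

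Of 54532 IDs, 54495 matched GENCODE M21 and 37 did not. edgeR 4.0.16 (R 4.3.3) was used with filterByExpr (minimum count 10, minimum total 15), TMM factors and a model of genotype alone, tested two-sided by quasi-likelihood and adjusted by the Benjamini-Hochberg method over 14908 genes. Fold changes used a prior count of 0.125, differences between libraries a prior count of 2 on log2 CPM, and the SE was derived from the F statistic (log2 fold change, without its sign, over root F). The procedure was tested on simulated data. P-values set the difference between genotypes against the spread between these samples, estimated with information shared across genes. Replicates differed by far more than counting noise (chi-square per degree of freedom 17.1 in WT and 31.0 in Zbp1-KO), so each counted as 1 sample.

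The members, gene lists and markers were chosen with earlier results of these data known. Named genes were all members, Zbp1, Irf1, Ifng, called list genes and up to 4 tested genes per list with the largest absolute log2 fold change; other list genes are named for counts at or near 0, and Gbp8, Gbp10 and Gbp11 as the remaining tested guanylate-binding genes. One gene that the rule would name is not reported here. Promoter windows are from RefSeq (GRCm38.p6), and coding sequences from CCDS transcripts of GENCODE M21. Protein features were read from codons, since no protein table was used here. Alternatives were RLE and upper quartile factors, other filters, the replicate number as a block, the edgeR exact test, DESeq2 1.42.0, limma-voom (limma 3.58.1), libraries without mitochondrially encoded genes, and each library left out in turn.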

Additional observations from a re-analysis of the deposited data

How the results depend on the processing

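The number of genes called over the whole table, 2 here, was 41 with all genes of at least 1 count, 14 with the edgeR exact test, 9 with DESeq2, 7 with limma-voom, 4 without mitochondrially encoded genes, and 0 to 37 with 1 library left out. The number of GTPase genes called was 0, but 3 (Gbp2, Igtp and Iigp1) with all genes of at least 1 count, and 0 to 1 with 1 library left out (Igtp without WT 2 and Gbp2 without Zbp1-KO 2). Of the other family and pathway genes 0 were called, 2 (Gbp4 and Nlrc5) with all genes of at least 1 count, 1 (Nlrc5) with the exact test, and 0 to 1 with 1 library left out (Tgtp1 without Zbp1-KO 2). The median log2 fold change of the members was 0.90 to 1.00 under the alternatives with all 4 libraries and 0.30 to 1.79 with 1 left out, and the number of members with both Zbp1-KO values above WT, 4 here, was 4 to 10 with 1 library left out, while the share of all genes with this order went from 16.0% to between 28.7% and 34.9%. The 41 calls with all genes of at least 1 count were among 22065 genes tested, beside 2 among 14908 here. With 1 library left out, 15793 to 15939 genes were tested. Of the 90 fold changes of single members with all 4 libraries, 0 changed sign. Of the 40 with 1 library left out, 3 changed sign, namely Gbp9 at -0.04 without WT 1 and -0.16 without Zbp1-KO 1, and Iigp1 at -0.39 without Zbp1-KO 1. In these fits the lone sample of a genotype is assumed to vary like the other group, so nothing is read from the calls they gave. The cause of these shifts was not tested.

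Deviations of same-numbered libraries from their group means correlated at 0.00399 over genes, so no pairing was seen. With 2 libraries per genotype, this cannot exclude a shared litter, cage or batch. A replicate block in the model gave 11 called genes in all, 0 of them members, and the members' median was 0.90. All 7 promoter windows also held the ISRE-like motif with 1 more A at its end, present in 3.99% of all genes.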
